A study of Xenopus laevis with 24 samples.

Results

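The transcripts of 7 *Xenopus laevis* genes of the oocyte and maternal germ line were followed in explants of the gastrula. The genes were *gdf9*, *42sp43*, *cpeb1*, *dazl*, *velo1*, *ddx25* and *trim36*, and every gene model that carries one of these names, with or without a final .L or .S, was taken. *X. laevis* is an allotetraploid, and .L and .S mark the copies of a gene on its 2 subgenomes. The rule found 10 of the 31694 gene models in the authors' deposited table: both copies of *gdf9*, *cpeb1* and *trim36*, and the L copy only of *42sp43*, *dazl*, *velo1* and *ddx25*. All 10 were among the 31349 models that passed the filter on low counts.

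RNA was sequenced from 24 libraries of explanted tissue, with 2 libraries (replicates 1 and 2) in each of 12 groups. Dorsal marginal zone (DMZ) explants, the tissue that holds the Spemann organizer, were cut from stage 10.5 embryos, with 50 isolated. They were collected in lots of 5 or 6 at each of 10 stages, from stage 11 (gastrula) to stage 18 (late neurula). Ventral marginal zone (VMZ) explants, 5 in number, were also cut at stage 10.5, while 20 animal caps were cut at stage 8, and both were collected when sibling embryos were at stage 11. The labels give no genotype, strain or added agent for any group, and the embryos were incubated at 16 °C before explants were cut. Each library is therefore a pool of explants, and the labels do not say whether replicates 1 and 2 came from separate clutches, so p-values measure the spread between these libraries. For the animal cap, the tissue and the earlier cut cannot be told apart.

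A frog egg is loaded with mRNA that was made and stored during oogenesis. Some of it is masked and then translated on cue through cytoplasmic polyadenylation, some is tethered at the vegetal pole, where the germ plasm that marks future germ cells also lies, and most is removed after the embryo's own genome becomes active. *gdf9* encodes a TGF-beta family ligand secreted by the oocyte, best known from mammals as a signal to follicle cells. *42sp43* encodes a 5S RNA-binding protein of the 42S storage particle of young oocytes. *cpeb1* and *dazl* encode RNA-binding proteins that regulate translation of stored mRNA, *velo1* encodes a protein of the Balbiani body, from which germ plasm derives, and *ddx25* encodes a DEAD-box helicase whose *Xenopus* RNA lies in germ plasm. *trim36* encodes a ubiquitin ligase whose maternal *Xenopus* RNA is vegetal and is needed for the cortical microtubules that set the dorsal side.

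The total count was 7375650 in DMZ stage 11 replicate 2, 14570725 in DMZ stage 17 replicate 1 and 21871182 to 39827863 in the other libraries. Tissue labels were checked against marker lists at stage 11, as summed CPM (counts scaled to a common library size, here with TMM factors). Organizer markers summed to 976 and 1520 in the DMZ, 155 and 127 in the VMZ and 36.2 and 80.5 in caps, in replicates 1 and 2. Pan-mesoderm markers were low in caps, at 27.2 and 49.6, against 1140 and 1210 in the DMZ and 1670 and 827 in the VMZ. Ventral marginal zone markers summed to 1150 and 710 in the VMZ and 489 and 346 in the DMZ. They were highest in caps, at 1440 and 1390, so this list did not set the VMZ apart from caps. Endoderm markers were not equal between the VMZ libraries, at 477 and 151. Without *a2m.S*, which makes up 89.4% to 98.6% of the endoderm sum in DMZ libraries, the VMZ sums were 248 and 95.7. Of 8 further germ plasm markers, 5 were low in every library, with highest levels of 0.615 CPM for *nanos1.L*, 1.51 for *grip2.L*, 2.18 for *pgat.L*, 2.54 for *piwil1.L* and 4.57 for *dnd1.L*. Each of these highest levels was in a VMZ library. For *nanos1.L*, *pgat.L* and *dnd1.L* both VMZ libraries lay above every cap and stage 11 DMZ library, where the highest levels were 0.128, 1.34 and 2.56 CPM. This order was not seen for *grip2.L*, *piwil1.L*, *ddx4.L*, *tdrd6.L* and *piwil2.L*. It was looked for after the values were seen, and its share over all models was not counted. *nanos1.L* had only 20 and 17 counts in the VMZ libraries. In the germ plasm and germ cell list, 0 of 19 models were called between the VMZ and either tissue. Of all models, 3.14% were called between the DMZ and VMZ and 1.03% between the VMZ and caps. At an unadjusted p under 0.05 with edgeR, 3 of the 19 were lower in the DMZ than in the VMZ. By the same measure 1 was higher in the VMZ than in caps. The other 3 markers were not low: at stage 11 *ddx4.L* lay between 93.1 and 123 CPM, *tdrd6.L* between 48.1 and 61.4 and *piwil2.L* between 25.8 and 30.8.

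Of the 10 gene models, 4 fell and 1 rose in DMZ explants between stages 11 and 18, and 5 did not pass the test. The falls were those of *gdf9.L*, *gdf9.S*, *42sp43.L* and *velo1.L*, from 14.4-fold to 26.2-fold, and the rise was that of *trim36.L*, 3.35-fold. A fit by edgeR with the replicate number as a block also called a fall of *dazl.L* (adjusted p = 0.00382). Calls here and below are by the quasi-likelihood test of edgeR, at a p under 0.05 after Benjamini-Hochberg adjustment over all 31349 models. Unless said otherwise, calls and shares of all models are from the fit without the replicate block. In this comparison 40.4% of all models were called, 19.6% lower and 20.9% higher, so a call alone does not set a transcript apart. Called falls of more than 10-fold were made for 2.93% of models. The median log2 fold change was -1.87 over the 10 models and 0.02 over all models tested. A decline from stage 11 to 18 was thus called for *gdf9*, *42sp43* and *velo1*, while none was called for *trim36* and *ddx25*. For *cpeb1* and *dazl* the main test left a fall undecided. No library is earlier than stage 11, so whether the transcripts present were maternal was not tested. In tissue of many cells, fewer cells that hold a transcript and less of it per cell cannot be told apart, and a CPM is a share of each library's counts.

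*gdf9.L* stood at 74.8 and 71.4 CPM in replicates 1 and 2 at stage 11, 40.6 and 58.3 at 11.5, 31.5 and 37.3 at 12, 24.5 and 28.7 at 12.5, 21.0 and 21.9 at 13, 15.6 and 11.1 at 14, 12.6 and 10.8 at 15, 10.1 and 7.96 at 16, 6.22 and 4.15 at 17, and 3.59 and 4.3 at 18. The stage mean went down at each of the 9 steps, and the stage 11 and 18 libraries lay far apart. Such a course of 9 falls out of 9 was found for 3.23% of models. The mean fell from 73.1 ± 2.4 to 3.95 ± 0.51 CPM (SD, n = 2), 5.39% of its start, a log2 fold change of -4.21 ± 0.259 (SE; adjusted p = 1.71e-07).

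*gdf9.S* followed the same course, from 49.9 and 62.6 CPM at stage 11 through 28.6 and 47.6 at 11.5, 25.8 and 30.6 at 12, 16.2 and 22.8 at 12.5, 13.5 and 15.1 at 13, 10.2 and 9.69 at 14, 7.71 and 6.19 at 15, 5.97 and 5.83 at 16 and 3.95 and 2.28 at 17 to 2.65 and 1.92 at 18. Its stage mean also went down at all 9 steps, and no library from stage 13 on reached any library of stage 12 or earlier. The log2 fold change was -4.62 ± 0.315 (adjusted p = 2.7e-07), with the ratio of stage 18 to stage 11 between 0.0253 and 0.0655 (95% interval). For *gdf9.L* that interval was 0.0365 to 0.0799. The means of both copies were first under 50% of the stage 11 level at stage 12 for L (47%) and at 12.5 for S (34.7%, after 50.1% at stage 12).

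*42sp43.L* was at 6.38 and 8.06 CPM at stage 11, 3.69 and 7.65 at 11.5, 2.95 and 4.37 at 12, 1.46 and 2.5 at 12.5, 1.81 and 2.6 at 13, 1.44 and 1.07 at 14, 1.62 and 2.12 at 15, 1.06 and 0.977 at 16, 0.869 and 0.563 at 17, and 0.525 and 0.466 at 18. Its fall was less even than that of *gdf9*: the stage mean went down at 7 of 9 steps, with small steps up at stages 13 and 15. The log2 fold change was -3.85 ± 0.454 (adjusted p = 1.51e-05), and 6.86% of the stage 11 mean was left at stage 18. Other proteins of oocyte RNA storage are given with the gene lists below.

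*velo1.L* fell furthest of the 10. It was at 6.92 and 8.19 CPM at stage 11, 3.98 and 6.53 at 11.5, 2.36 and 4.43 at 12, 1.79 and 2.66 at 12.5, 0.875 and 2.64 at 13, 1.04 and 0.977 at 14, 0.796 and 0.861 at 15, 0.375 and 0.698 at 16, 0.134 and 0.483 at 17, and 0.35 and 0.219 at 18. The stage mean went down at all 9 steps, to 3.77% of its start, but the last values rest on few reads, with 2 counts in stage 17 replicate 1. The log2 fold change was -4.71 ± 0.583 (adjusted p = 2.28e-05), and the 95% interval of the ratio, 0.0159 to 0.0921, contained the values of both *gdf9* copies.

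**Figure D1:**
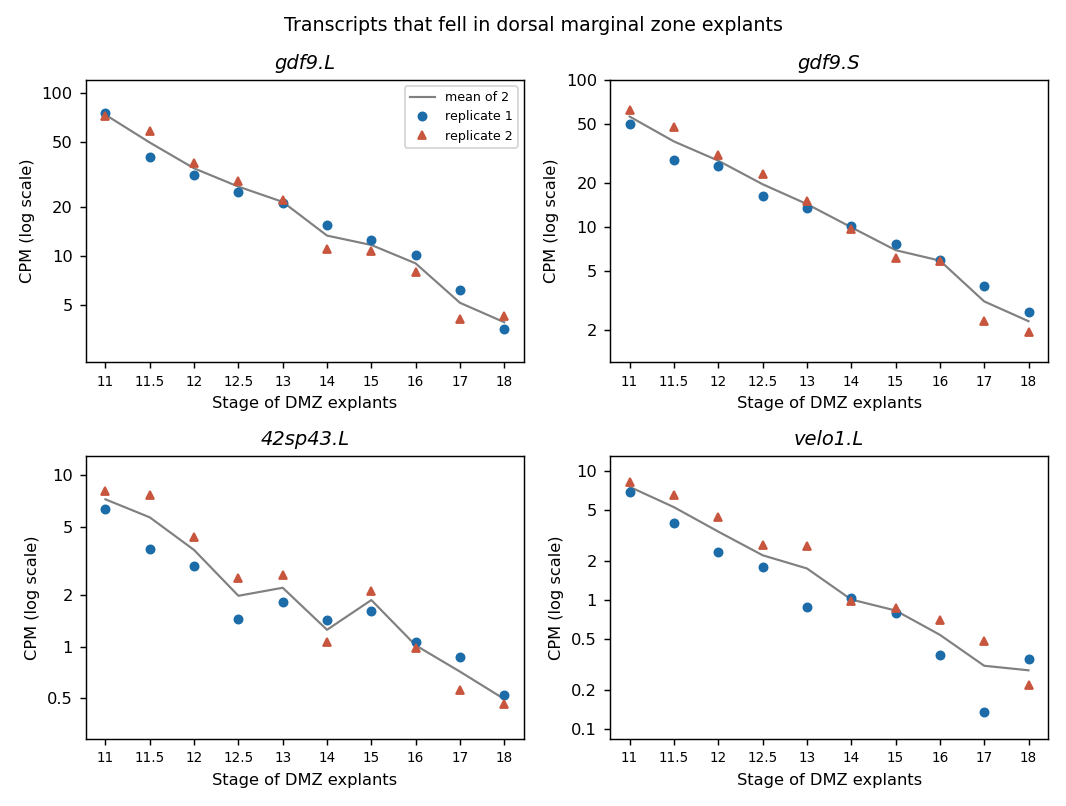
CPM on a log axis against the stage of DMZ explants for the 4 gene models that fell, with replicate 1 as circles, replicate 2 as triangles and the mean of 2 as a line. *gdf9.L* goes from 73.1 to 3.95 CPM and *gdf9.S* from 56.3 to 2.29 in near-straight lines, while *42sp43.L* steps up at stages 13 and 15 and *velo1.L* spreads widely between replicates at stages 13 and 17.

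The falls of these 4 were called both during gastrulation and during neurulation. From stage 11 to 13, 4 of the 10 models were lower and 1 was higher, where 17.1% of all models were called (8.84% lower, 8.27% higher). The log2 fold changes were -1.77 ± 0.232 for *gdf9.L* (adjusted p = 0.000972), -1.98 ± 0.278 for *gdf9.S* (0.00112), -1.70 ± 0.408 for *42sp43.L* (0.0117) and -2.10 ± 0.501 for *velo1.L* (0.0115). From stage 13 to 18, 4 models were lower and 0 higher at this threshold (1 higher at an unadjusted p under 0.05, and 1 higher with DESeq2), where 14.3% of all models were called (6.98% lower, 7.36% higher). The 1 higher was *trim36.L*, which ranked 5293 of the 31349 models by p with edgeR. Here the log2 fold changes were -2.44 ± 0.242 for *gdf9.L* (adjusted p = 6.7e-05), -2.64 ± 0.292 for *gdf9.S* (0.00012), -2.15 ± 0.435 for *42sp43.L* (0.00467) and -2.61 ± 0.558 for *velo1.L* (0.00636). The median over the 10 was -1.26 in the first interval and -0.81 in the second, against 0.01 and -0.01 over all models. Both comparisons use the stage 13 libraries, so they are not independent. For *42sp43.L* and *velo1.L* the calls did not hold without some single libraries: from stage 11 to 13 both had an adjusted p of 0.118 without stage 13 replicate 1, and of 0.0798 and 0.0592 without stage 11 replicate 2. From stage 13 to 18 they had 0.0579 and 0.139 without stage 13 replicate 2, and 0.0579 and 0.0834 without stage 18 replicate 2. In these fits the log2 fold changes were still falls, from -1.46 to -2.06 for *42sp43.L* and from -1.51 to -2.31 for *velo1.L*.

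The *cpeb1* copies were scarce in the DMZ, with 3 to 47 counts per library for L and 5 to 63 for S. *cpeb1.L* was at 0.882 and 1.02 CPM at stage 11 and 0.466 and 0.302 at stage 18, and over all 20 DMZ libraries it lay between 0.166 and 1.75. *cpeb1.S* was at 1.05 and 1.28 CPM at stage 11 and 0.525 and 0.329 at stage 18, with a range of 0.245 to 2.35. For both copies the stage 11 and 18 libraries did not overlap, yet the highest DMZ value of each was in stage 11.5 replicate 2, which stood 3.4-fold above replicate 1 for L and 4.83-fold for S. The log2 fold changes from stage 11 to 18 were -1.28 ± 0.934 (adjusted p = 0.293) and -1.42 ± 0.874 (0.212), with 95% intervals of the ratio of 0.1 to 1.68 and 0.0999 to 1.4. A fall of up to 10-fold and a small rise are both inside these intervals. The test of any change over the 10 stages gave adjusted p = 0.507 for L and 0.346 for S.

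*dazl.L* differed between its replicates at every stage. In replicate 1 it was at 1.83 CPM at stage 11, 1.55 at 11.5, 1.46 at 12, 1.09 at 12.5, 0.648 at 13, 0.997 at 14, 0.643 at 15, 0.375 at 16, 1.14 at 17 and 0.641 at 18. In replicate 2 it was at 7.04, 4.74, 5.29, 4.02, 2.51, 2.34, 2.42, 1.57, 1.39 and 1.07 CPM at the same stages. Replicate 2 was above replicate 1 at 10 of 10 stages, with a median ratio of 3.66 and a range of 1.23 to 4.19. This held for 7.34% of all models, and among the 10 also for *trim36.S*, whose median ratio was 1.67 (range 1.11 to 2). Among the further germ plasm markers it held also for *grip2.L*, *piwil1.L*, *dnd1.L* and *tdrd6.L*. It did not hold for *nanos1.L*, *pgat.L*, *piwil2.L* and *ddx4.L*. Within each replicate number the level of *dazl.L* at stage 18 was below that at stage 11. The pooled log2 fold change was -2.31 ± 0.993 (adjusted p = 0.0751) and did not pass the threshold. With the replicate number as a block the fall was called, at an adjusted p of 0.00382, as were the fall from stage 11 to 13 (0.0491) and any change over the 10 stages (0.0196, against 0.481 without the block). It was also called with DESeq2 (0.0282), and without stage 11 replicate 1 (0.0438), but had an adjusted p of 0.491 without stage 11 replicate 2. In the VMZ *dazl.L* was lower in replicate 2 than in replicate 1 (0.657-fold), and in caps it was higher (1.86-fold). The summed CPM of 13 endoderm markers, *a2m.S* left out, was higher in replicate 2 at 5 of 10 DMZ stages (median ratio 1.04, range 0.661 to 6.47), and its ratio was 0.386 in the VMZ and 1.45 in caps. With *a2m.S* included it was higher at 7 of 10 stages (median ratio 1.32). The part of tissue content in the *dazl.L* difference was not tested.

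*ddx25.L* stayed level. It was at 2.71 and 4.48 CPM at stage 11 and 3.21 and 4.74 at stage 18, all 20 DMZ libraries lay between 2.33 and 4.91, and the stage 11 and 18 libraries overlapped. The ratio of stage 18 to 11 was 1.13 (95% interval 0.66 to 1.93, adjusted p = 0.729), an interval that lies above the falls of the *gdf9* copies, *42sp43.L* and *velo1.L*. *trim36.S* was at 9.16 and 18.3 CPM at stage 11 and 14.4 and 19.7 at stage 18, within a DMZ range of 9.01 to 19.7. Its ratio was 1.26 (0.654 to 2.41, adjusted p = 0.577), and in both transcripts any change over the 10 stages had an adjusted p of 1.

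*trim36.L* rose. It was at 7.83 and 9.47 CPM at stage 11, 12.2 and 12.4 at 11.5, 10.4 and 16.0 at 12, 11.6 and 14.1 at 12.5, 17.6 and 16.3 at 13, 19.2 and 19.4 at 14, 26.7 and 27.4 at 15, 31.5 and 28.8 at 16, 23.1 and 36.8 at 17, and 21.7 and 35.8 at 18. Every library from stage 13 on was above every library of stages 11 to 12.5, and the means of stages 16 to 18 were alike, from 28.8 to 30.1. The log2 fold change from stage 11 to 18 was 1.74 ± 0.279, a 3.35-fold rise (95% interval 2.2 to 5.1, adjusted p = 0.000185). The rise from stage 11 to 13 was 1.97-fold (adjusted p = 0.0248). That call was lost without any 1 of the libraries compared, at 0.125 and 0.065 without stage 13 replicates 1 and 2 and at 0.125 and 0.0785 without stage 11 replicates 1 and 2, and was lost with the L and S counts summed (0.272). The log2 fold change without 1 library stayed between 0.84 and 1.11, against 0.98 with all. From stage 13 to 18 the 1.70-fold difference had an adjusted p of 0.0677. It was called with DESeq2 (0.0322), without stage 18 replicate 1 (0.0374) and with the replicate block (0.0182).

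**Figure D2:**
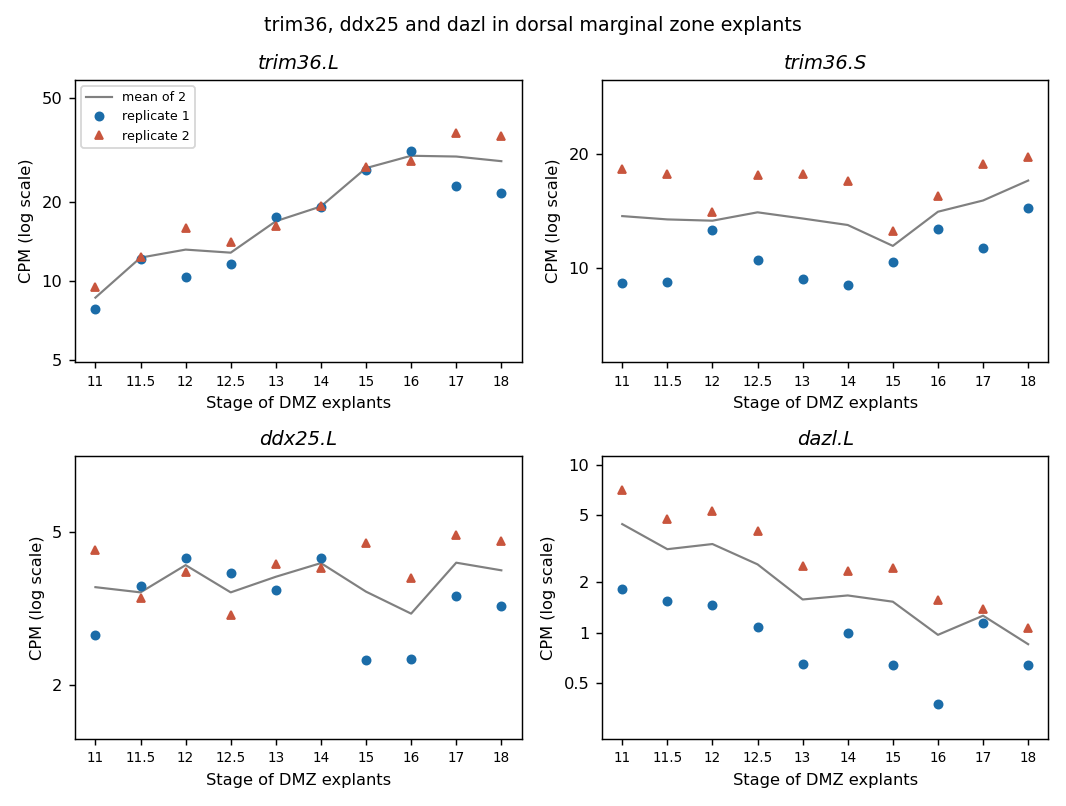
CPM on a log axis against the stage of DMZ explants for *trim36.L*, *trim36.S*, *ddx25.L* and *dazl.L*, with replicate 1 as circles, replicate 2 as triangles and the mean of 2 as a line. *trim36.L* climbs from a mean of 8.65 to 28.8 CPM, and in *trim36.S* and *dazl.L* the replicate 2 points lie above the replicate 1 points at 10 of 10 stages.

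Over the whole course, 5 of the 10 models changed at some stage, where 30% of all models did. They were *gdf9.L* (adjusted p = 2.52e-07), *gdf9.S* (4.61e-07), *velo1.L* (3.55e-05), *42sp43.L* (4.5e-05) and *trim36.L* (0.000418).

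The L and S copies of a pair can be set against each other within a library, since their ratio needs no scaling. For *trim36* the log2 ratio of L to S counts was -0.225 and -0.946 in the stage 11 DMZ libraries and 0.597 and 0.863 at stage 18, so the copy with more counts went from S to L. The ratio rose by 1.32 ± 0.39 on the log2 scale (limma over 5024 pairs, Benjamini-Hochberg adjusted p = 0.0147), where 37.8% of all pairs were called and 20.4% rose. This call was lost without stage 11 replicate 2 (adjusted p = 0.142, difference 0.95) or stage 18 replicate 2 (0.093, 1.18). In the VMZ the *trim36* log2 ratios were -1.19 and -1.27 and in caps -0.702 and -0.504, so S counts exceeded L counts in all 6 libraries of stage 11. For *gdf9* the ratio was 0.584 and 0.19 at stage 11 and 0.433 and 1.16 at stage 18, a difference of 0.41 ± 0.24 (adjusted p = 0.196), and L counts exceeded S counts in all 24 libraries. Without stage 18 replicate 1 that difference had an adjusted p of 0.0389, and without replicate 2 of 0.917. For *cpeb1* the difference was 0.13 ± 0.64 (adjusted p = 0.888). Reads shared by near-identical copies are divided between them by estimation in kallisto, the counting tool that the submitters' processing notes name, so each copy's level carries that uncertainty.

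**Figure D3:**
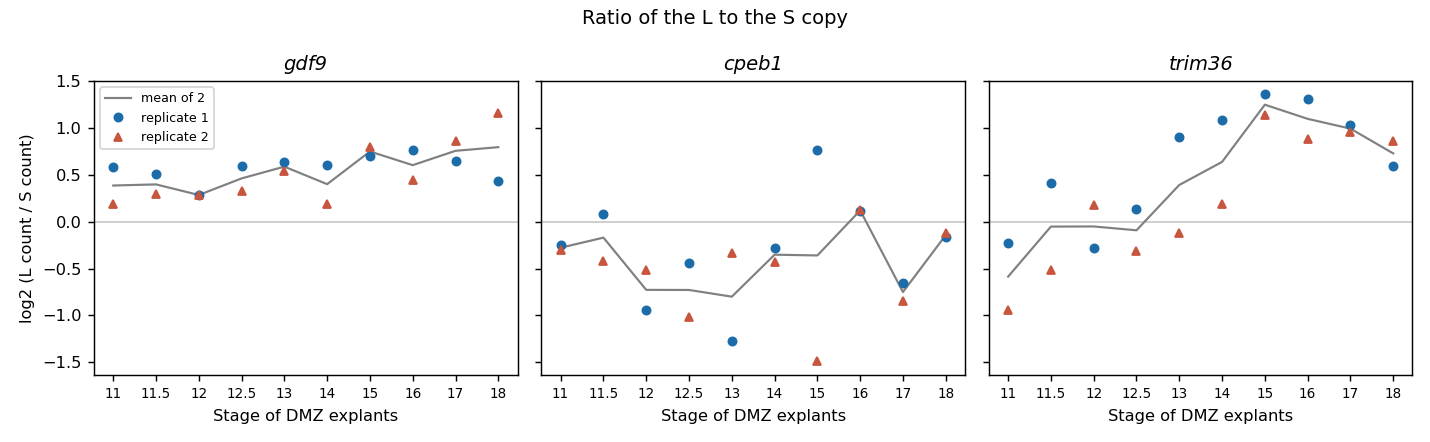
Log2 ratio of L to S counts against the stage of DMZ explants for *gdf9*, *cpeb1* and *trim36*, with replicate 1 as circles, replicate 2 as triangles and the mean of 2 as a line. The *trim36* mean goes from -0.585 at stage 11 to 0.73 at stage 18, the *gdf9* points all lie above 0, and the *cpeb1* points scatter about a mean near 0 or below.

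At stage 11 most of these transcripts were not called different between the DMZ, the VMZ and the animal cap. With 2 libraries per group, the lack of a call does not show that levels are alike. Against caps, 0 of the 10 models differed in the DMZ and 0 in the VMZ with edgeR, where 3.21% (2.49% higher, 0.718% lower) and 1.03% (0.721% higher, 0.313% lower) of all models were called. At an unadjusted p under 0.05 these counts were 0 and 2 (both *cpeb1* copies), and with DESeq2 they were 0 and 0. By p with edgeR the 2 ranked 1030 and 1462 of the 31349 models, and DESeq2 called 1645 and 902 models in all. Between DMZ and VMZ, 2 of the 10 were lower in the DMZ and 0 higher, where 3.14% of all models were called (0.906% lower, 2.24% higher), and 4 were lower and 0 higher at an unadjusted p under 0.05. These 4 ranked 972, 978, 4557 and 4643 of the 31349 models by p. With DESeq2 the counts were again 2 and 0, where 2251 models were called in all. The median log2 fold changes over the 10 were -0.14 for DMZ over cap, 0.36 for VMZ over cap and -0.47 for DMZ over VMZ, against -0.02, 0.03 and -0.04 over all models.

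*gdf9.L* was at 108 and 102 CPM in the VMZ, 88.0 and 74.9 in caps and 74.8 and 71.4 in the DMZ. The VMZ libraries were the highest, and the lower cap library stood next to the higher DMZ library. VMZ exceeded DMZ 1.43-fold (95% interval of DMZ over VMZ 0.496 to 0.98) and cap 1.29-fold, with adjusted p = 0.236 and 0.676. The intervals, unlike these p-values, are not adjusted for the number of models tested. *gdf9.S* was at 76.1 and 70.2 CPM in the VMZ, 56.0 and 58.9 in caps and 49.9 and 62.6 in the DMZ, the same order, with the DMZ libraries on both sides of the cap libraries (adjusted p = 0.502 for DMZ against VMZ). *velo1.L* was at 17.4 and 15.2 CPM in the VMZ, 8.78 and 9.02 in caps and 6.92 and 8.19 in the DMZ. Its 3 groups did not overlap, but the share of all models with such an order was not counted. VMZ exceeded DMZ 2.16-fold (95% interval of DMZ over VMZ 0.225 to 0.952, adjusted p = 0.232) and cap 1.83-fold (adjusted p = 0.593), neither a call.

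*42sp43.L* was at 7.81 and 11.5 CPM in the VMZ, 7.25 and 12.1 in caps and 6.38 and 8.06 in the DMZ, and the 3 ranges overlapped. *dazl.L* was at 3.32 and 2.18 CPM in the VMZ, 2.61 and 4.86 in caps and 1.83 and 7.04 in the DMZ, again without order. *ddx25.L* was at 5.17 and 4.84 CPM in the VMZ, 3.48 and 3.16 in caps and 2.71 and 4.48 in the DMZ. Its VMZ libraries were the highest, without a call (DMZ against VMZ adjusted p = 0.502, VMZ against cap 0.649). *trim36.L* was at 6.77 and 8.82 CPM in the VMZ, 8.78 and 10.1 in caps and 7.83 and 9.47 in the DMZ, and *trim36.S* at 15.5 and 21.2, 14.3 and 14.3, and 9.16 and 18.3. No comparison of either copy between tissues was called.

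The *cpeb1* copies were the exception, through 1 library. *cpeb1.L* was at 1.51 CPM in VMZ replicate 1 (49 counts) and 19.8 in replicate 2 (879 counts), against 1.38 and 2.8 in caps and 0.882 and 1.02 in the DMZ. *cpeb1.S* was at 2.03 CPM in VMZ replicate 1 (66 counts) and 20.3 in replicate 2 (901 counts), against 1.63 and 2.32 in caps and 1.05 and 1.28 in the DMZ. VMZ replicate 2 thus stood 13.1-fold above replicate 1 for L and 9.99-fold for S, while replicate 1 was inside the range of the caps. The log2 fold changes of DMZ over VMZ were -3.50 ± 0.915 (adjusted p = 0.0495) and -3.28 ± 0.856 (0.049). Without VMZ replicate 2 neither was called (0.845 and 0.793), and the log2 differences were -0.71 and -0.85. They were not called either without DMZ replicate 1 (0.285 and 0.287) or DMZ replicate 2 (0.146 and 0.14), but there the differences stayed as large, at -3.37 and -3.12 and at -3.60 and -3.42. Without VMZ replicate 1 both differed also between VMZ and cap (adjusted p = 0.0249 and 0.0214, from 0.27 and 0.2). The size of the difference between DMZ and VMZ thus rested on VMZ replicate 2.

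Among the 14666 models with a VMZ mean of at least 5 CPM, 26 (0.177%), both *cpeb1* copies included, had a ratio of VMZ replicate 2 to replicate 1 at least as large as that of *cpeb1.S*. They included *ccnb5.L*, a B-type cyclin, at 1.97 and 26.8 CPM, *btg4.S*, an adaptor of mRNA deadenylation known from mouse oocytes, at 0.861 and 9.7, and *chfr.S*, a mitotic checkpoint ubiquitin ligase, at 0.677 and 13.4. These 3 were chosen after their values were seen and do not stand for the 26. The largest finite ratios were 703 for *alpk3.S*, 211 for *arsd.L* and 139 for *LOC108707057*. Other models of the 7 genes did not share the difference: the ratio was 0.942 for *gdf9.L*, 0.922 for *gdf9.S*, 0.872 for *velo1.L*, 0.657 for *dazl.L* and 1.47 for *42sp43.L*. The summed CPM of 19 germ plasm and germ cell models was 414 and 428 in the VMZ libraries. Its models did not all move alike: *ddx4.L* was at 112 and 94.3 CPM and *piwil1.L* at 0.4 and 2.54 (13 and 113 counts). *piwil1.L* was picked here after its values were seen. The summed CPM of the endoderm markers without *a2m.S* was 248 and 95.7, and of pan-mesoderm markers 1670 and 827. The part of tissue content in the *cpeb1* values was not tested.

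**Figure D4:**
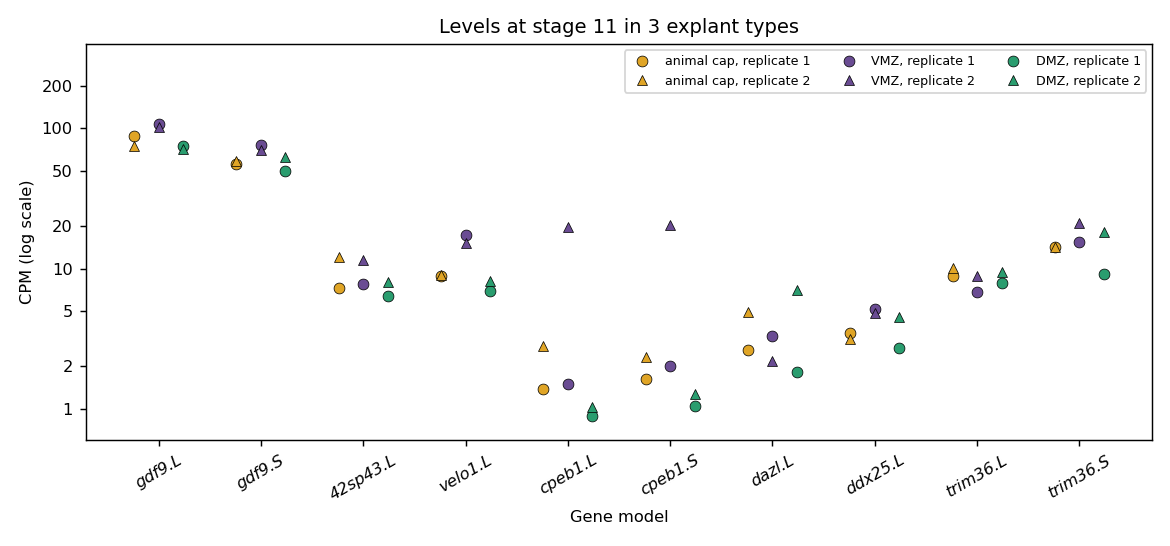
CPM on a log axis at stage 11 for the 10 gene models in animal caps, VMZ and DMZ, with replicate 1 as circles and replicate 2 as triangles. For *cpeb1.L* and *cpeb1.S* VMZ replicate 2 stands alone at 19.8 and 20.3 CPM, while for *velo1.L* both VMZ libraries, at 17.4 and 15.2, lie above the other 4. The same order is seen for *gdf9.L*, *gdf9.S* and *ddx25.L*.

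The other genes of the pathways these transcripts belong to were read from 7 lists of gene symbols. Some symbols stand in several lists, and counts are given without the 7 genes. Over all models tested, 19.6% were called lower and 20.9% higher from stage 11 to 18. Of 18 egg coat and oocyte factor models, 13 fell from stage 11 to 18 and 0 rose (0 also at an unadjusted p under 0.05 and with DESeq2), with a median log2 fold change of -2.95 over the 20 models that include *gdf9*. They included *zp2.L*, a glycoprotein of the egg coat, from 109 to 16.9 CPM (log2 fold change -2.69 ± 0.258, adjusted p = 2.79e-06), and *h1foo.L*, an oocyte linker histone, from 7.63 to 0.256 (-4.88 ± 0.5, 4.53e-06). At stage 11 *h1foo.L* was also 3.11-fold lower in the DMZ than in the VMZ, at 23.8 CPM (adjusted p = 0.041 with edgeR). In that comparison 2 of the 18 models were lower and 0 higher, where 0.906% and 2.24% of all models were. *bmp15.L*, which encodes the ligand that pairs with GDF9 in mammals, was at 1.36 CPM at stage 11 and 1.41 at stage 18 (adjusted p = 0.981). *bmp15.L* was outside the rule for named genes and was chosen after its values were seen.

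Of 16 germ plasm and germ cell models, 8 fell and 1 rose, and the median over the 19 with *velo1*, *dazl* and *ddx25* was -1.63. With the replicate block the count of falls over the 19 was 14, against 9. The block also raised the calls over all 31349 models, falls and rises together, from 12674 to 15885. *piwil2.L*, a PIWI protein of the piRNA pathway, went from 29.6 to 5.99 CPM (-2.31 ± 0.2, adjusted p = 1.19e-06), *tdrd7.L*, a Tudor-domain protein of germ granules, from 56.2 to 5.93 (-3.24 ± 0.34, 5.57e-06), and *ddx4.L*, the vasa helicase, from 108 to 42.2 (-1.36 ± 0.14, 4.91e-06). The *ddx4.L* fall was 2.56-fold, beside 26.2-fold for *velo1.L*, a difference that was not tested. The single rise was that of *tdrkh.L*, another Tudor-domain protein of the piRNA pathway, from 12.7 to 19.4 CPM (adjusted p = 0.0371), and 0 models rose without stage 18 replicate 2. *tdrkh.L* was chosen after its values were seen.

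Of 17 models of vegetally localised maternal RNAs, 8 fell and 1 rose (*otx1.S*, from 6.65 to 33 CPM, adjusted p = 0.00688, chosen after its values were seen), and the median over 22 with the *velo1*, *dazl*, *ddx25* and *trim36* models was -1.95. The falls included both copies of *vegt* and models that share the name *gdf1.L*. These *gdf1.L* models, chosen after their values were seen, were at 0.78, 0.439 and 0.443 CPM at stage 11. With the replicate block 12 of the 22 fell, against 9. Over the 22, rises numbered 2, against 1 without stage 11 replicate 1 and 3 without stage 11 replicate 2. *vegt.L*, a T-box factor of vegetal cells, went from 213 to 10.4 CPM (-4.35 ± 0.755, adjusted p = 0.000353) and *wnt11b.L*, a Wnt ligand, from 278 to 59.7 (-2.22 ± 0.346, 0.000148). At stage 11 *wnt11b.L* was 22.5-fold and *vegt.L* 27.4-fold higher in the DMZ than in caps (adjusted p = 3.32e-06 and 0.00177), a comparison in which 0 of the 10 models were called with edgeR, with DESeq2 or at an unadjusted p under 0.05. Both genes are also transcribed by the embryo. Over the 22 models, 5 were higher in the DMZ than in caps and 0 lower (1 lower at an unadjusted p under 0.05, and 0 with DESeq2), where 2.49% of all models were higher and 0.718% lower.

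Of 12 other models of oocyte RNA storage and 5S RNA binding, 4 fell and 3 rose, where 19.6% and 20.9% of all models did. The median was -0.79 over 13, and 8 of the 13 fell with the replicate block, against 5. *42sp50.L*, the partner of the 42Sp43 protein in the storage particle, went from 22.9 to 2.16 CPM (-3.40 ± 0.422, adjusted p = 2.34e-05), beside -3.85 for *42sp43.L*. *ybx2.S*, a Y-box protein that packs stored mRNA, went from 43.2 to 10.6 (-2.03 ± 0.369, 0.000493). *rpl5.L* and *rpl5.S*, the ribosomal protein that takes up 5S RNA in growing cells, rose from 112 to 332 (adjusted p = 0.000512) and from 80.4 to 185 CPM (0.000403). Of these, *rpl5.L* was chosen after its values were seen.

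Of 36 models of translational control other than *cpeb1* and *dazl*, 15 fell and 5 rose, with a median over 39 of -0.58. *pabpc1l.L*, the embryonic poly(A)-binding protein, fell in both models of that name, from 51.6 to 8.17 and from 14.5 to 2.27 CPM (-2.66 ± 0.266 and -2.67 ± 0.211, adjusted p = 3.85e-06 and 6.56e-07). *patl1.L*, a decapping activator, went from 291 to 48.6 (-2.58 ± 0.272, 5.78e-06) and *zar1.S*, an oocyte RNA-binding protein, from 20.8 to 1.13 (-4.19 ± 0.409, 3.14e-06). *cpeb3.S*, a relative of *cpeb1*, rose from 1.19 to 3.52 CPM (adjusted p = 0.005). *cpeb3.S* was also chosen after its values were seen. The rises numbered 3 without stage 18 replicate 2.

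Of 39 models of mRNA clearance, 14 fell and 4 rose (8 rose with the replicate block), and the median, -0.15, was near that of all models. *pan2.S*, a deadenylase subunit, went from 141 to 15.7 CPM (-3.17 ± 0.23, adjusted p = 3.59e-07) and *zfp36l2.L*, a protein that binds AU-rich RNA, from 190 to 85.7 (-1.15 ± 0.146, 2.82e-05). Of 23 models of the maternal cell cycle, 11 fell and 3 rose, with a median of -1.21. *wee2.S*, a kinase that inhibits Cdk1, went from 29.4 to 0.453 CPM (-6.01 ± 0.456, adjusted p = 5.1e-07) and *mos.L*, the kinase of meiotic arrest, from 29.8 to 9.96 (-1.58 ± 0.198, 2.44e-05). At stage 11, 3 of these 23 were lower in the DMZ than in the VMZ and 0 higher, where 0.906% and 2.24% of all models were. Among the 3 were *h1foo.L*, also in the egg coat list, and *ccnb5.L*, whose VMZ libraries were at 1.97 and 26.8 CPM. In every list the shares that fell can be read against the 19.6% of all models called lower, and those that rose against the 20.9% called higher. Both shares are from the fit without the replicate block, so they are no measure for list counts with the block.

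**Figure D5:**
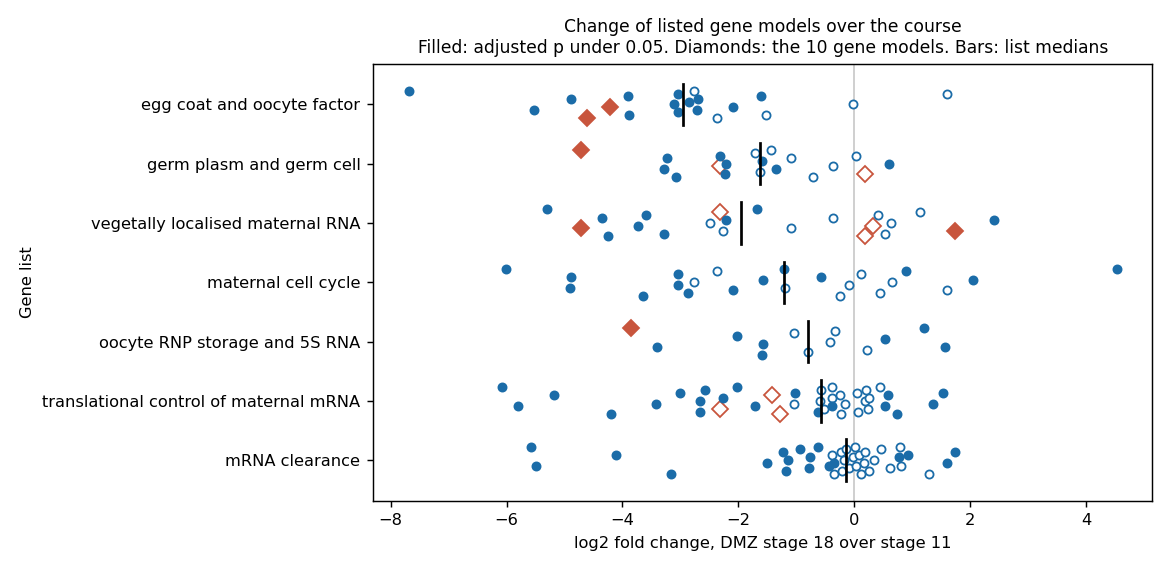
Log2 fold change of DMZ stage 18 over stage 11 for each tested model of 7 gene lists, with calls filled, the 10 gene models as diamonds and list medians as bars. Medians run from -2.95 for egg coat and oocyte factors to -0.149 for mRNA clearance, and *trim36.L* at 1.74 is the filled diamond to the right of 0.

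The gene models whose course was most like that of each gene were found by the Pearson correlation of log2 CPM over all 24 libraries, among 17628 to 17630 models that reached 5 CPM in some group. The libraries of one group and of neighbouring stages share their source, so r is a description. For *gdf9.L* the closest were *LOC108710049* (r = 0.997), *grip1.S* (0.994) and *kif14.L*, a mitotic kinesin (0.993). For *velo1.L* they were *chuk.S* (0.985), *pabpc1l.L* (0.984) and *loc100145274.L* (0.983), and for *42sp43.L* *vps13c.L* (0.981), *tbc1d24.1.L* (0.979) and *LOC108703245* (0.978). For *cpeb1.S* they were *LOC108708645* (0.937), *rab31.L* (0.936) and *ccnb5.L* (0.932). *cpeb1.S* was at 20.3 CPM in VMZ replicate 2 and at most 2.35 in any other library, so its r values depend on that library. That *ccnb5.L* and *LOC108708645* were among the models raised there is not a separate likeness. *dazl.L* was most like *got1.S* (0.921), *dnal4.L* (0.92) and *skp1.L* (0.918), and *trim36.S* most like *rdh10.L* (0.862), *fam210a.L* (0.851) and *LOC100217319* (0.85). The course of *ddx25.L* had no close match, the nearest being *prkca.S* at 0.7. Among the 10 models themselves, *gdf9.L* ran with *gdf9.S* (r = 0.993), *42sp43.L* (0.967) and *velo1.L* (0.963), against *trim36.L* (-0.924) and without relation to *ddx25.L* (0.044).

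In the authors' deposited table of stage profiles, 13913 models are given a cluster. There *gdf9.L*, *gdf9.S*, *42sp43.L*, *cpeb1.L*, *cpeb1.S* and *velo1.L* are in cluster 2, which holds 34.9% of the clustered models and has a median difference of -1.20 between stages 18 and 11 in the authors' regularised log2 values. *trim36.L* is in cluster 4 (29.8%, median 1.13), and *dazl.L*, *ddx25.L* and *trim36.S* have no cluster in the authors' deposited table. The authors' deposited table lists adjusted p-values of 8.07e-16 for *cpeb1.L* and 8.52e-15 for *cpeb1.S*, whereas neither was called here for a change over the DMZ stages. The sources used here do not say which samples that p compares, and in the authors' deposited table the regularised log2 value of *cpeb1.L* is 6.48 in the VMZ, 5.34 in caps, 4.59 in the stage 11 DMZ and 3.85 at stage 18.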

How the data were processed

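The deposited table holds unscaled counts, 1 for each gene model in each library, which are estimates where kallisto divided shared reads. Trim Galore, kallisto and DESeq2 were used, per the submitters' processing notes, and the sources used here do not give their versions, the genome build or the handling of strand. A second table by the authors gives regularised log2 values per group, adjusted p-values and cluster numbers as deposited. Gene names are the authors'.

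Tests were run with edgeR 4.0.16 and, for ratios, limma 3.58.1, under R 4.3.3. filterByExpr with groups (minimum count 10, total 15) left 31349 models, and TMM scaled the libraries. The robust quasi-likelihood model was fitted to all 24 libraries in 12 groups, with 12 residual degrees of freedom and a biological coefficient of variation of 0.33. The SE is the size of the log2 fold change over the square root of F. Intervals are at 95% and are not adjusted for the number of models tested. All p-values are two-sided. L to S ratios used a pseudocount of 0.5. Correlations used a prior count of 2. The script was tested on simulated data.

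All models of the 7 names are reported. Listed genes are named among the 4 called models of smallest p per list for stage 18 against 11 with at least 5 CPM, and among 2 per regional comparison, unless said otherwise. The members, lists and tests were chosen with earlier results of these data known, so patterns already seen in them are not independent support.

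Same-numbered libraries deviated together from their group means in 66 of 66 pairs of groups (correlation over genes 0.237 to 0.666, median 0.409). The labels do not state this pairing, so it rests on the check. The main fit did not include it, and the replicate block is given as an alternative. Alternatives were RLE and upper quartile scaling, no filter, a filter of 1 CPM in 4 libraries, the replicate number as a block, DESeq2 1.42.0, a fit of the compared groups alone, summed L and S counts, other pseudocounts (1 and 2), only the 20 DMZ libraries for the ratios, and leaving out each library. The sum of endoderm markers without *a2m.S* was an alternative chosen after seeing the data.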

Additional observations from a re-analysis of the deposited data

How the results depend on the processing

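Of 1003 values of the 10 models under the alternatives, 965 stayed on the same side of the threshold. Among them, 31 uncalled values changed sign and stayed uncalled. No called value changed sign. The calls of *gdf9.L*, *gdf9.S*, *42sp43.L*, *velo1.L* and *trim36.L* from stage 11 to 18, and over all stages, held under every alternative run, with a highest adjusted p of 0.0415 (*trim36.L*, any change, L and S summed).

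With the replicate block, the numbers of models called were 14297 for any change (against 9404), 9479 for stage 13 against 11 (5364), 8227 for 18 against 13 (4493), 2714 for DMZ against VMZ (985), 1692 for DMZ against cap (1006) and 867 for VMZ against cap (324). For stage 18 against 11 the number with the block was 15885, against 12674. The block gave *dazl.L* adjusted p = 0.0196 for any change, 0.00382 for 18 against 11 and 0.0491 for 13 against 11, and *trim36.L* 0.0182 for 18 against 13. It changed no other call of the 10. DESeq2 called 2251, 1645 and 902 models in the 3 regional comparisons, and gave *dazl.L* 0.0282 (18 against 11) and *trim36.L* 0.0322 (18 against 13). A fit of only the groups compared, which has fewer samples to estimate the spread, called 674 models for 13 against 11, and 0, 193 and 0 in the regional comparisons (DMZ with VMZ, DMZ with cap, VMZ with cap). There the adjusted p was 0.0676 for *42sp43.L*, 0.0855 for *velo1.L* and 0.1 for *trim36.L* (13 against 11), 0.0541 for *velo1.L* (18 against 13), and 0.527 and 0.512 for *cpeb1.L* and *cpeb1.S* (DMZ against VMZ). With L and S summed *trim36* had 0.272 for 13 against 11.

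Leaving out 1 library gave 1274 to 4271 calls for 13 against 11, 1040 to 3029 for 18 against 13, 210 to 1434 for DMZ against VMZ, 489 to 744 for DMZ against cap, 133 to 352 for VMZ against cap and 1197 to 1692 pairs of 1900 for the L to S ratio. The lowest came without stage 13 replicate 1, stage 13 replicate 2, VMZ replicate 2, cap replicate 1 (both cap comparisons) and stage 18 replicate 2. Adjusted p then ran, for 13 against 11, from 0.0254 to 0.118 for *42sp43.L*, 0.0131 to 0.118 for *velo1.L* and 0.065 to 0.125 for *trim36.L*. For 18 against 13 it ran from 0.00886 to 0.0579 for *42sp43.L*, 0.00286 to 0.139 for *velo1.L* and 0.0374 to 0.538 for *trim36.L*, and for *dazl.L*, 18 against 11, from 0.0438 to 0.491. For DMZ against VMZ it ran from 0.00302 to 0.845 for *cpeb1.L* and 0.00393 to 0.793 for *cpeb1.S*, and for VMZ against cap from 0.0249 to 1 and 0.0214 to 1. For the L to S ratio it ran from 0.0389 to 0.917 for *gdf9* and 0.0132 to 0.142 for *trim36*. Upper quartile scaling moved the share of calls that were higher from 51.3% to 40.2% for 18 against 13, 71.2% to 82.2% for DMZ against VMZ and 69.8% to 54.9% for VMZ against cap. For DMZ against VMZ that share moved the other way without VMZ replicate 1 (58.3%), with DESeq2 (60.5%) and with the block (60.2%), and it was 86.8% and 87% without DMZ stage 11 replicates 1 and 2. For VMZ against cap it was 58.1% with the block. The causes were not tested. With 2 libraries per group, the total of 7375650 counts in DMZ stage 11 replicate 2 and counts as low as 2 or 3 limit *cpeb1* and late *velo1.L*.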
